A study of Rattus norvegicus with 4 samples.

Results

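The nuclear-encoded genes of the respiratory chain and of ATP synthase were examined in NR8383 cells, an alveolar macrophage line founded from the lung lavage of a normal rat, after exposure to 2 µg/mL of the iron oxide particle Fe2O3 (NRCWE018) for 4 h. Members were the genes whose rat symbol begins with Nduf, Uqcr, Atp5 or Cox followed by a digit 4 to 8, together with Sdha, Sdhb, Sdhc, Sdhd and Cyc1, a rule that uses gene names only. Through their probes' RefSeq accessions, 88 members with 119 probes were found among 16581 named genes. The cells had gone through 20 passages, and all 4 samples are exposed cultures of this single line, each hybridised to 1 single-colour Agilent array. They grew partly attached and partly floating in DMEM with serum, were seeded 48 h beforehand, and are separate biological replicates by the study's design. That design also has cultures incubated without particles, which were not analysed here, so nothing reported here measures a response to the particles. A p-value compares only the 4 exposed cultures with each other. In bulk RNA, fewer cells of a kind and less RNA per cell cannot be told apart.

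In the inner mitochondrial membrane, complex I takes electrons from NADH and complex II from succinate, complex III passes them to cytochrome c, and complex IV hands them to oxygen. The proton gradient built on the way drives complex V, the ATP synthase. Most subunits are encoded in the nucleus, and several subunits of complex IV exist as isoforms that are used in different tissues, such as heart and skeletal muscle, testis or lung. In macrophages the balance between this pathway and glycolysis is known to change with activation. Subunits encoded by mitochondrial DNA were not analysed here.

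The members were 33 subunits of complex I, 7 assembly factors of complex I (the Ndufaf genes, which are not part of the finished enzyme), 4 subunits of complex II, 9 of complex III, 18 genes of complex IV, 16 of complex V and the transcribed pseudogene Cox6c-ps1. Ndufa4 and its paralogue Ndufa4l2 were counted with complex IV, where the NDUFA4 protein resides despite its name. The gene table used for names holds 119 protein-coding genes that meet the rule, and 32 of these, among them Cox7a1, Cox7b2, Atp5mc3, Ndufa8 and Ndufs6, had no matched probe and were not analysed here. It also holds 108 pseudogenes that meet the rule, and 43 members had at least 1 pseudogene or like-named copy there, with which a probe could share signal. All 8 macrophage markers examined were above background on every array, and none of 6 lung epithelium and 4 neuron markers was above it on any.

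The array's 75th percentile of processed signal, on which levels are scaled, was 1072, 984.3, 1082 and 756.5 on replicates 1 to 4. Between 37.8% and 41.2% of probes were well above background on an array, and no spot was saturated. Levels are log2 of the processed signal minus log2 of that percentile, so a level of 0 lies at the percentile. The number of arrays limits the precision. All arrays shared 1 slide, each culture having its own position there, so effects of culture and of position cannot be separated.

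Most of the members with a probe were above background in the exposed macrophages. On all 4 arrays, 83 of the 88 members (94.3%) were well above background, against 50.5% of all named genes. Another 3 members were above background on some arrays and 2 on none. The mean level lay above the 75th percentile in 75 of 88 members (85.2%), against 22.4% of all named genes. The median level over the 88 members was 4.12, against -4.64 over all named genes. Among genes above background on all arrays the medians were 4.20 for the members and -0.42 for all named genes. These are descriptions, since probes differ in how strongly they bind and the level of 1 probe cannot be ranked against that of another.

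**Figure D1:**
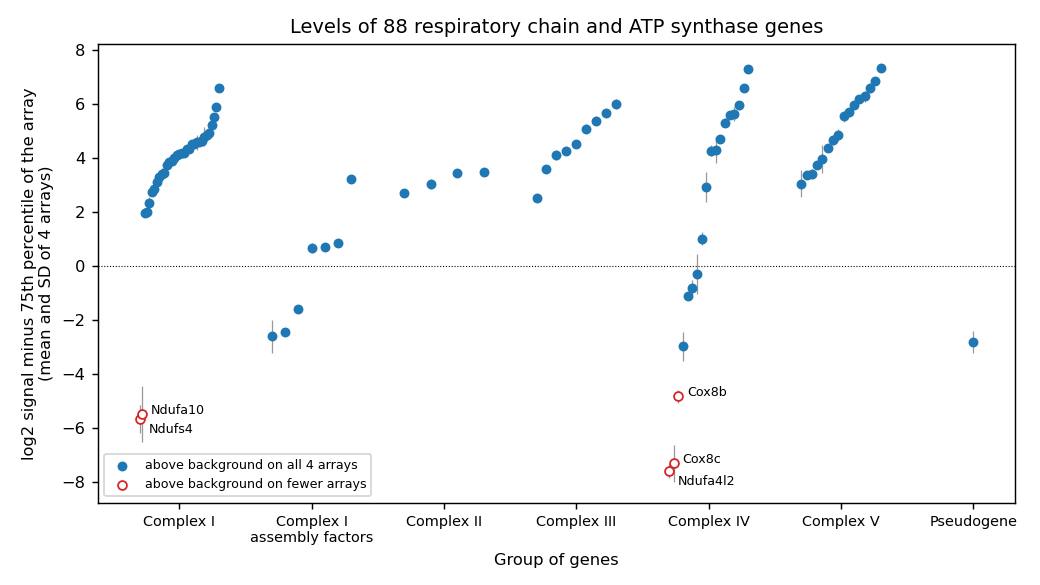
Level of each of the 88 members (vertical axis: log2 signal minus the array's 75th percentile, mean with SD over 4 arrays), by complex along the horizontal axis. Filled points were above background on all 4 arrays; the 5 open points, Ndufa10, Ndufs4, Cox8b, Cox8c and Ndufa4l2, were not.

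Complex I had 31 of 33 subunits above background on all arrays, with a median level of 4.16 over the 33. All 7 core subunits examined, the part of the enzyme that carries electrons, were among them. Ndufv1, the NADH-binding subunit, lay at 4.43, 4.68, 4.40 and 4.58 in replicates 1 to 4, and Ndufv2 at 4.69, 4.74, 4.52 and 4.63. Ndufs1, which holds iron-sulfur clusters of the electron path, was at 1.84, 1.95, 2.12 and 2.04. These arrays differed by 0.28 or less for each of the 3 genes, and no array was apart for all of them. Ndufs3 (3.75 ± 0.12), Ndufs7 (3.47 ± 0.21) and Ndufs8 (2.03 ± 0.10; all SD, n = 4) were also above background on every array.

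Of the accessory subunits of complex I, 24 of 26 were above background on all arrays, and the steadiest members of the entire set were here. Ndufb6 was at 4.13, 4.16, 4.08 and 4.18 and had the smallest SD of all members, 0.04. Ndufb8 was at 6.59 ± 0.08 and Ndufa13 at 5.89 ± 0.14 (SD, n = 4). Ndufb11 (SD 0.05) and Ndufa9 (SD 0.07) were also among the 5 members of smallest SD. The 2 accessory subunits not above background throughout had 1 probe each. Ndufs4, a subunit needed for a stable and active complex I, was at -5.44, -6.34, -5.09 and -5.72, above background only in replicates 1 and 3. Ndufa10 was at -4.97, -5.13, -4.80 and -7.02, above background in replicates 1 to 3 and far below its other values in replicate 4. The gene Ndufa10l1, named as a Ndufa10-like gene, lay at 4.20 ± 0.08 on 1 probe and 2.60 ± 0.12 on the other (SD, n = 4). The Ndufa10 probe was matched through a predicted transcript only, so its level cannot be ranked against that of Ndufa10l1. All 7 assembly factors were above background, at a median level of 0.67. They included Ndufaf4, at -2.66, -2.10, -2.16 and -3.42, which was lowest in replicate 4. Its other probe above background was highest there instead, at -4.90, -4.48, -4.65 and -4.20. The remaining factors ran from Ndufaf1 (-2.44 ± 0.11) to Ndufaf8 (3.24 ± 0.09; SD, n = 4).

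Complex II, which is also the citrate cycle enzyme succinate dehydrogenase, had all 4 genes above background on every array. Sdha, the flavoprotein that oxidises succinate, was at 2.76, 3.12, 3.13 and 3.17, with replicate 1 below the rest. Sdhb, the iron-sulfur subunit, was at 3.48, 3.48, 3.35 and 3.50 and was low in replicate 3 alone. The membrane anchor Sdhd was at 3.36, 3.37, 3.56 and 3.67, with replicates 1 and 2 close together, and the other anchor, Sdhc, averaged 2.72 ± 0.08 (SD, n = 4).

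All 9 genes of complex III were above background, with a median level of 4.53. The Rieske iron-sulfur protein Uqcrfs1 lay at 4.44, 4.60, 4.57 and 4.49, and cytochrome c1, Cyc1, at 5.55, 5.27, 5.22 and 5.51. The small subunits Uqcr10 (6.01 ± 0.18), Uqcr11 (5.10 ± 0.18) and Uqcrh (4.28 ± 0.11), the hinge protein, were also measured on every array (SD, n = 4). The core proteins Uqcrc1 (3.61 ± 0.14) and Uqcrc2 (2.54 ± 0.12) were above background as well, as were Uqcrb (4.11 ± 0.19) and Uqcrq (5.68 ± 0.12). The values of Cyc1, Uqcr10, Uqcr11, Uqcrb and Uqcrq are those of 1 of 2 probes for each. The other probes of Cyc1, Uqcr10 and Uqcr11 averaged 5.37, 5.36 and 1.15. No member of complex III had an unadjusted p under 0.05 in the test of spread described below.

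Complex V had all 16 genes above background and a median level of 5.21. The alpha subunit Atp5f1a (7.35 ± 0.05), the catalytic beta subunit Atp5f1b (4.37 ± 0.14), the rotor shaft subunit Atp5f1c (3.74 ± 0.10) and the stalk subunit Atp5po (5.96 ± 0.08) varied little (SD, n = 4). Atp5if1, which inhibits the enzyme when it runs backwards, was at 4.44, 4.77, 4.60 and 4.87. Of the genes that encode the proton-carrying c-ring, Atp5mc1 (6.85 ± 0.15) and Atp5mc2 (6.60 ± 0.18) were both above background. The small membrane subunits Atp5me (6.30 ± 0.20) and Atp5mg (5.55 ± 0.19) and the peripheral stalk subunits Atp5pb (3.43 ± 0.19), Atp5pd (5.70 ± 0.14) and Atp5pf (3.38 ± 0.15) were above background as well (SD, n = 4).

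In complex IV the general isoforms were above background and 3 tissue isoforms or paralogues were not so on every array. Of its 18 genes, 15 were above background on all arrays, and the median level over the 18 was 3.60. The general isoforms Cox4i1 (6.60 ± 0.10), Cox6a1 (7.31 ± 0.15), Cox7a2 (5.32 ± 0.16) and Cox8a (5.64 ± 0.24) were above the 75th percentile on every array. So were the subunits Cox5a (5.60 ± 0.10) and Cox5b (5.96 ± 0.17, all SD, n = 4). The general isoform Cox6b1 (-1.10 ± 0.07) and the subunit Cox7c (-2.96 ± 0.53; SD, n = 4), each with 1 probe, lay below the percentile on every array. The other probes of Cox7a2, Cox5a and Cox5b averaged 3.93, 5.59 and 4.17. Cox7a2l, a relative of Cox7a2 that helps to join complexes III and IV, was at 4.70 ± 0.11. Ndufa4 lay at 4.28 ± 0.20, whereas Ndufa4l2, a gene induced by hypoxia-inducible factor in other cells, was above background on no array with either of its 2 probes.

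**Figure D2:**
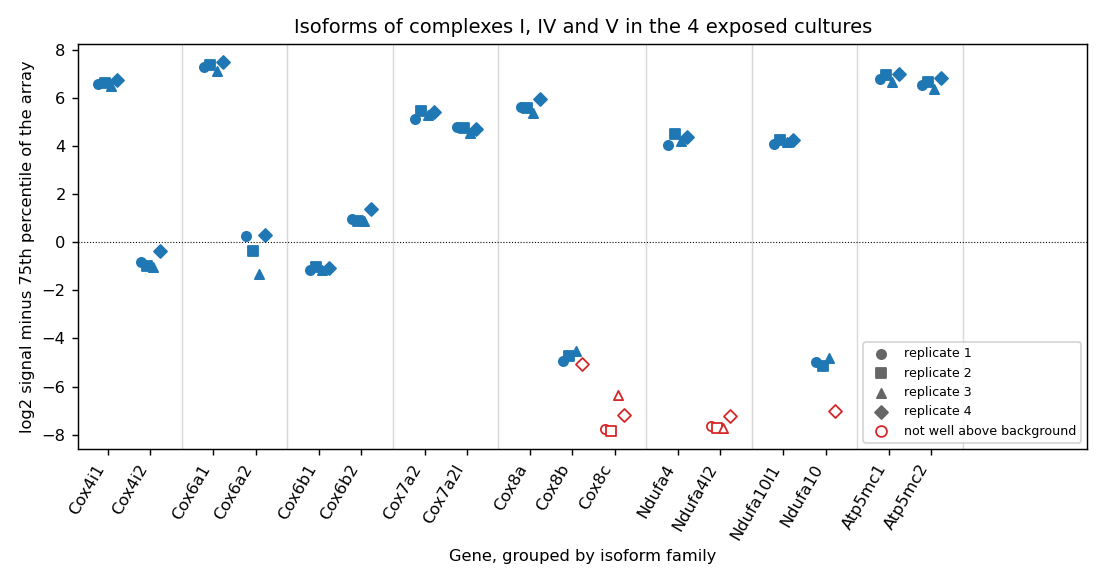
Level in each replicate (vertical axis: log2 signal minus the array's 75th percentile) of genes grouped by family along the horizontal axis, with a marker for each replicate. Open red markers are spots not well above background: all 4 of Cox8c and Ndufa4l2, and replicate 4 of Cox8b and Ndufa10.

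The isoform families differed in whether the tissue-restricted form was also measured. In the Cox8 family the muscle form Cox8b was at -4.95, -4.71, -4.52 and -5.07, above background in replicates 1 to 3 only, and the testis form Cox8c was above background on none. Of the other families, Cox4i2, the lung-enriched and hypoxia-responsive form of subunit 4, was above background on all arrays at -0.81, -1.01, -1.03 and -0.38. Cox6a2, the heart and skeletal muscle form of subunit 6a, was also above background on all arrays. It had 0.26, -0.38, -1.31 and 0.29 on 1 probe and 0.48, -0.13, -1.19 and -0.61 on the other, with replicate 3 lowest on both and the probes apart in replicate 4. Cox6b2, a form best known from testis, was at 0.97, 0.86, 0.88 and 1.37, and its general counterpart Cox6b1 at -1.15, -1.01, -1.17 and -1.07. Both were above background throughout, and their levels come from different probes.

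Markers of the tissues in which these isoforms are known were mostly below background. Of 10 heart and skeletal muscle markers, 2 were above it on all arrays, Actc1 (0.74 ± 0.40) and Tnnt2 (-1.32 ± 0.15; SD, n = 4), and 7, including Myh7, Tnni3 and Ckm, on none. The summed signal of the 10, in multiples of the 75th percentile, was 2.13, 1.97, 1.78 and 2.93 in replicates 1 to 4. It was lowest in replicate 3, as were Cox6a2 and 34.4% of all genes above background on all arrays. The sums of the macrophage, testis and lung epithelium markers were also lowest there, and that of the neuron markers in replicate 1. No testis, lung epithelium or neuron marker was above background on all arrays, so their sums only order signal near the floor. The muscle sum is mainly that of Actc1, at 0.74, 0.54, 0.39 and 1.31 in replicates 1 to 4. The macrophage sum is mainly that of Lyz2, at 7.06, 7.34, 7.03 and 7.23. These sums therefore do not measure the content of a tissue. Of 7 testis germ line markers, 0 were above background on all arrays and Prm1 was on 2, with sums from 0.0574 to 0.0858. The part of such cells or transcripts in the isoform values was not tested.

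The windows upstream of the 3 Cox8 genes are shown because this family held a member above background on all arrays, one on 3 and one on none. Each is the 250 bases before the gene's start, from RefSeq's GRCr8 build, and capitals mark matches on either strand to CCGGAAG (the core bound by ETS factors such as GABP), TGACGTCA (a cyclic AMP response element) or TATAAA.
Cox8a, GRCr8 chr1:213833624-213833873, minus strand: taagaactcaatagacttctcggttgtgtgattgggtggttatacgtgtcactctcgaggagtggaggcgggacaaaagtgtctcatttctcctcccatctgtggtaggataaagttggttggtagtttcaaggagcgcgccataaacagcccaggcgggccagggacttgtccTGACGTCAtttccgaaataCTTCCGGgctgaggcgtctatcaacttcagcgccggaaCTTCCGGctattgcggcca
Cox8b, GRCr8 chr1:205408274-205408523, minus strand: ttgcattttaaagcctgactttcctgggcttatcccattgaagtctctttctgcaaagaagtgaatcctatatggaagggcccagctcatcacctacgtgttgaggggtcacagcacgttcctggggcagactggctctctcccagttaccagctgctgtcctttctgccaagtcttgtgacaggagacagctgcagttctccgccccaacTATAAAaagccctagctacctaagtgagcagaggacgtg
Cox8c, GRCr8 chr6:127793129-127793378, plus strand: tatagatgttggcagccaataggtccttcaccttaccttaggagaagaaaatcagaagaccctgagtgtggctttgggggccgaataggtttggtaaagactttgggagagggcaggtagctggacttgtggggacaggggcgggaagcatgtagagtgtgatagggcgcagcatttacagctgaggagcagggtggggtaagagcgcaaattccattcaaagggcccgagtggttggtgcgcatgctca
The Cox8a window held 2 ETS cores and 1 cyclic AMP response element, the Cox8b window 1 TATAAA, and the Cox8c window none of these. CpG dinucleotides numbered 15, 4 and 6.

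Across the members, 76 had a promoter sequence of 300 bases (250 before and 50 after the start). The ETS core CCGGAAG was found on either strand in 23 of the 76 (30.3%), against 20.4% of 7395 promoters of named genes above background on all arrays and 8.75% of all 33469 promoters. The YY1 core AAGATGGCG was found in 10 members (13.2%), against 4.03% and 1.73%, among them Uqcrc1, Ndufs7 and Ndufs4. The site of nuclear respiratory factor NRF1 was found in 14 (18.4%), against 10.8% and 4.25%. The cyclic AMP response element TGACGTCA was found in 4 (5.26%), against 3.37% and 1.83%. TATAAA was found in 6 (7.89%), against 7.32% and 14.2%. None of these motifs contains the letters of another, a match is not a measured site, and no test was made.

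The median SD of the members between the exposed cultures was near the SD usual at their level. With limma, the variance of a gene over the 4 arrays was compared with that usual at its level, for the 8376 genes above background on all arrays. Of the 83 members tested, 0 passed at an adjusted p under 0.05, against 0.191% of all genes, and 8 (9.64%) had an unadjusted p under 0.05, against 5.75% of all genes. At a share of 0.191%, 0 of 83 does not set the members apart from all genes. With normexp background correction 6 members passed, against 157 of all 8376 genes tested. Without replicate 4 the number was 4 of 85 members tested, against 22 of all 8644 genes tested. In both settings the share was larger for the members than for all genes. The median SD was 0.15 for the 83 members and 0.18 for all 8376 genes. It was 0.12 for complex I, 0.12 for complex II, 0.14 for complex III, 0.20 for complex IV and 0.17 for complex V. The members and all genes are not matched for level here, with median levels of 4.20 and -0.42. The usual SD fell with level, from 0.19 at the level of Cox6a2 (-0.28) to 0.14 at that of Ndufa10l1 (4.20).

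**Figure D3:**
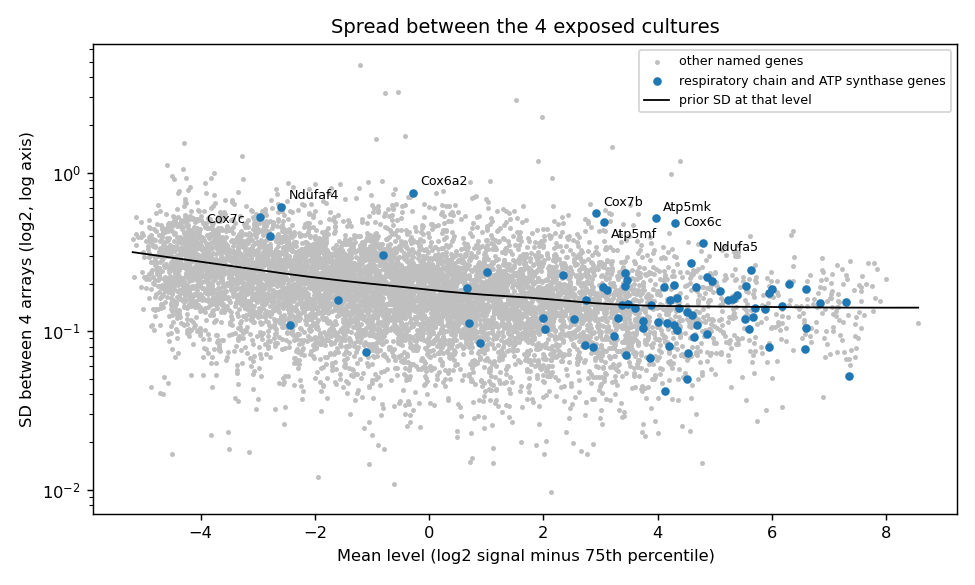
SD between the 4 arrays (vertical, log axis) against mean level (horizontal, log2 signal minus the 75th percentile) for 8376 genes above background on all arrays; respiratory members are blue, other genes grey, and the line is the prior SD at each level. The 8 labelled members, among them Cox6a2 with an SD of 0.75, lie above the line, and most members lie near or below it.

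The members of lowest p were mostly small subunits of complexes IV and V, several of them low in replicate 1. Atp5mk, a small subunit that helps ATP synthase to form dimers, was at 3.19, 4.24, 4.22 and 4.23 (limma adjusted p 0.205), with replicate 1 far below the others. All 4 of its probes showed the same step: the other probes were at 3.03, 2.86 and 1.02 in replicate 1 and at 4.04 to 4.14, 3.93 to 4.08 and 2.06 to 2.12 in the rest. Without replicate 1 its unadjusted limma p was 0.990, which follows from leaving out its outlying value and is not a separate check. Cox7b was at 2.25, 3.58, 3.07 and 2.79 (limma adjusted p 0.180), lowest in replicate 1 and highest in replicate 2. Cox6c was at 3.70, 4.89, 4.34 and 4.27 (limma adjusted p 0.237), and its other probe at 1.91, 3.17, 2.63 and 2.40. Replicate 1 was lowest and replicate 2 highest on both probes, and the pseudogene Cox6c-ps1 ran in the same order at -3.31, -2.34, -2.68 and -2.83.

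Other members of low p kept part of this pattern. Ndufa5, an accessory subunit of complex I, was at 4.28, 5.10, 4.89 and 4.93 (limma adjusted p 0.536), again lowest in replicate 1. Atp5mf was at 2.64, 3.57, 3.39 and 2.64 (limma adjusted p 0.246), but its 2 spots disagreed in replicate 4, at 2.17 and 3.11. Cox7c was at -3.63, -2.96, -2.92 and -2.34, and Ndufaf4, already given, differed in being lowest in replicate 4. Cox6a2, the member of lowest p (limma adjusted p 0.160), was lowest in replicate 3. By name, the 6 that passed with normexp were Cox6a2, Atp5mk, Cox7b, Atp5mf, Cox6c and Ndufa6, the last named after its values were seen. The 4 that passed without replicate 4 were Cox7b, Cox6a2, Cox6c and Atp5mk.

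**Figure D4:**
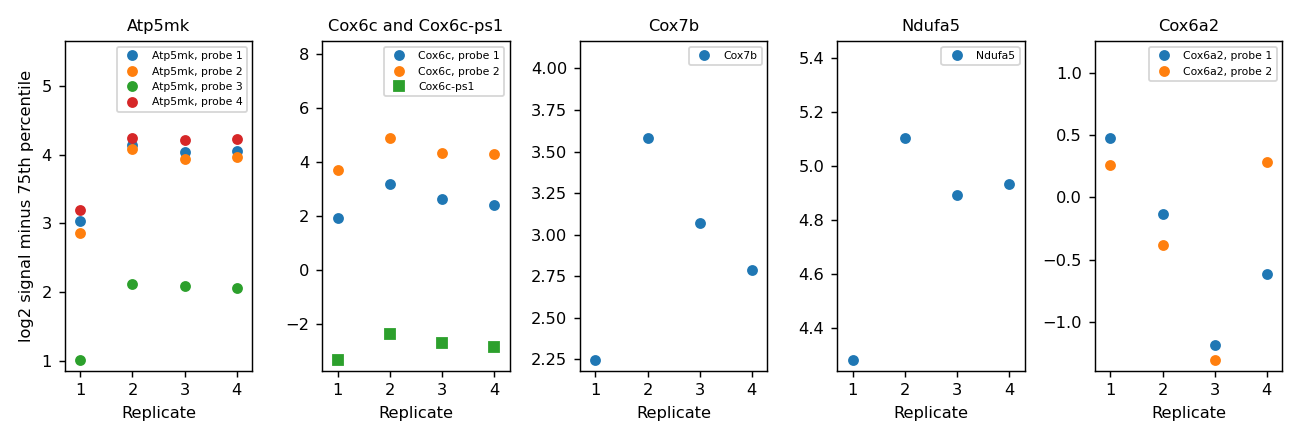
Level (vertical axis: log2 signal minus the array's 75th percentile, scale differing by panel) in replicates 1 to 4 for every probe above background on all arrays of Atp5mk, Cox6c with its pseudogene, Cox7b, Ndufa5 and Cox6a2. The 4 Atp5mk probes and both Cox6c probes were lowest in replicate 1, and both Cox6a2 probes in replicate 3.

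The difference between replicates 1 and 2 ran through many members. Replicate 2 was above replicate 1 in 68 of 83 members (81.9%), against 54.9% of all genes, and by at least 1 on the log2 scale in 3 members (3.61%), against 0.525%. Replicate 1 was the lowest array in 35 members (42.2%), against 29.9% of all genes, replicate 2 in 4 (4.82%), against 20.4%, replicate 3 in 35 (42.2%), against 34.4%, and replicate 4 in 9 (10.8%), against 15.4%. Replicate 1 was the highest array in 7 members (8.43%), against 19.9% of all genes, replicate 2 in 27 (32.5%), against 23.6%, replicate 3 in 3 (3.61%), against 20.1%, and replicate 4 in 46 (55.4%), against 36.3%. Members were thus seldom highest in replicates 1 and 3 and seldom lowest in replicate 2. The mean deviation of the 83 members from their own means was -0.11, 0.08, -0.05 and 0.08 in replicates 1 to 4, against -0.03, 0.00, -0.03 and 0.06 for all genes. The difference, members minus all genes, was -0.09 to -0.05 in replicate 1 and 0.05 to 0.08 in replicate 2 over the 14 settings that gave a value for each. The settings that changed only the prior variance, or scaled to probes above background, cannot alter this difference, so the 14 are not separate checks. The sign of the small difference in replicate 4 depended on the setting, from -0.02 to 0.05.

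By complex, the mean deviation in replicate 1 was -0.08 for complex I, -0.07 for complex II, -0.08 for complex III, -0.14 for complex IV and -0.16 for complex V. In replicate 2 it was 0.07, -0.02, 0.02, 0.09 and 0.12 for complexes I to V. The median deviations for complexes I to V were -0.05, -0.05, -0.08, -0.05 and -0.12 in replicate 1. In replicate 2 the medians were 0.06, -0.02, 0.04, 0.03 and 0.09. By its median, complex IV was thus not lower in replicate 1 than complexes I to III. Means and medians differed for complex IV, with means of -0.15 in replicate 3 and 0.20 in replicate 4 and medians of -0.11 and 0.13, and Cox6a2 and Cox7c were among its genes farthest from their own means. For complex V the medians there were -0.09 and 0.13. For the 7 assembly factors of complex I the mean deviation in replicate 4 was -0.15 and the median -0.07; Ndufaf4, whose probes disagree in that replicate, is 1 of the 7. These shifts were not tested. The 75th percentile was lowest in replicate 4, and the part of signal strength in these values was not tested.

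**Figure D5:**
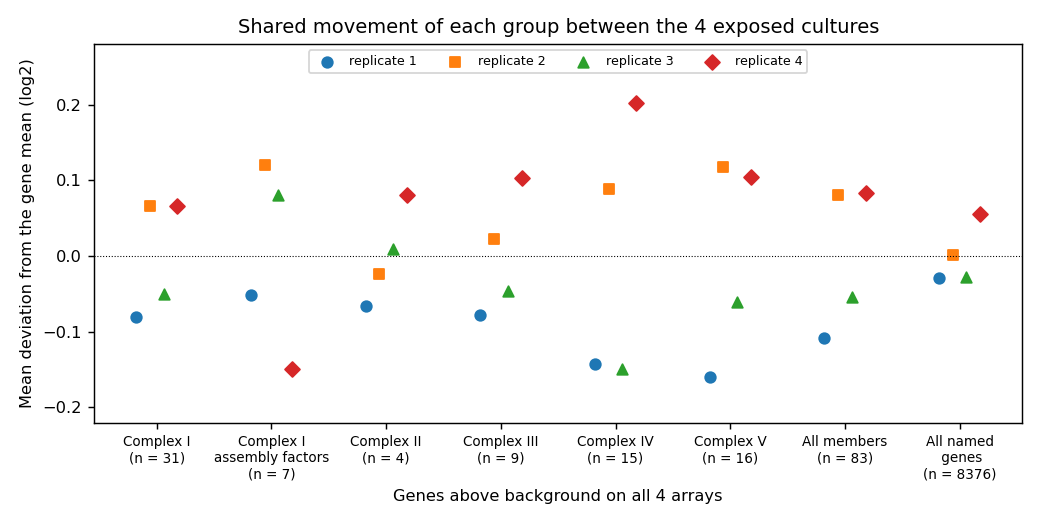
Mean deviation from each gene's own mean (vertical axis, log2) in replicates 1 to 4, for each group of genes above background on all 4 arrays along the horizontal axis. Replicate 1 lies below 0 in every group, and at -0.11 for all 83 respiratory genes, against -0.03 for all 8376 named genes.

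Genes that build, serve or regulate the respiratory chain were also examined, beside the 50.5% of all named genes above background on all arrays. Of 34 matched assembly factors outside the rule, 32 were above it on all arrays; Cox19 and Cox20, both needed for complex IV assembly, were above it on none. Of 17 genes for electron carriers and coenzyme Q synthesis, 16 were, including cytochrome c itself, Cycs (2.61 ± 0.21), whereas the testis form Cyct was above background on none. Among 9 carriers, porins and uncoupling proteins, 7 were, with the ADP/ATP carriers Slc25a4 (2.31 ± 0.12) and Slc25a5 (4.67 ± 0.07) and the uncoupling protein Ucp2 (2.25 ± 0.18; SD, n = 4) among them. Ucp1 and Ucp3 were above background on no array. Of 18 regulators, 16 were above background, including the mitochondrial transcription factor Tfam (1.14 ± 0.08), Nrf1 (-0.77 ± 0.14) and Gabpa (-3.66 ± 0.07), while the coactivator gene Ppargc1a and the hypoxia factor gene Epas1 were above it on none. Of the 78 genes matched in these 8 lists, 71 were above background on all arrays and so tested, and 0 of these passed limma's test of spread, against 0.191% of all genes tested.

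The choice of probe matters for a member read as low. In 4 of the 25 members with more than 1 probe (16.0%), one probe was above background throughout and another was not, against 23.6% of all genes with several probes. The 4 were Ndufab1, Uqcrb, Ndufaf4 and Cox6c-ps1. The acyl carrier Ndufab1 was at 3.42 on 1 probe and -7.44 on the other, and Uqcrb at 4.11 and -4.19. Uqcrq had both probes above background, at 5.68 and -4.02. The remaining 63 members had 1 probe, among them Ndufs4, Ndufa10, Cox6b1, Cox7c, Cox8b and Cox8c, so a low value there does not show that the gene was not expressed.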

How the data were processed

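Cy3-labelled cRNA of 4 exposed cultures was measured on Agilent arrays of 1 colour, per the labels' protocols. Spot intensity was extracted by the authors; the submitters' processing notes name Agilent Feature Extraction 11.0.1.1. Processed signals were background-subtracted and spatially detrended within the array, per the file headers, and not scaled between arrays; flags of 0 or 1 (other columns) mark spots well above background. How the authors scaled between arrays is unknown here (not given in the sources used).

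Of 58717 non-control spots, those marked as outliers were left out unless all spots of a probe were marked. From log2 signals, the array's own 75th percentile was subtracted and repeat spots averaged. A probe was above background where over 50% of its spots were. Names came from accessions matched without version to RefSeq's GRCr8 gene table (21109 of 45598 probes). A gene was represented by its probe above background on most arrays, then of highest mean signal. The test of spread used limma 3.58.1 in R 4.3.3 (squeezeVar, robust trended prior, 9.16 prior degrees of freedom, upper-tail F, Benjamini-Hochberg over 8376 genes, threshold 0.05). On simulated data with these 8376 genes it called 52% of 100 genes given 5 times the SD, 88% of 100 given 10 times, and 1 of the unchanged genes.

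The members' rule uses names only, but it and the gene lists were chosen with earlier results of these data known. Genes named were core subunits, isoform families, members not above background throughout, the 8 of lowest p, the 5 of smallest SD and those with disagreeing probes. Other genes given with values, such as Ndufb8, Uqcr10, Atp5me, Slc25a5, Ucp2 and Tfam, were chosen after their values were seen. Values of 1 core subunit are not reported here. The files hold no mean spot signal, so normexp (offset 50) used the median spot and background intensity deposited. The alternatives were the positive and significant flag, presence on 1 array, every probe or the mean over probes, normexp, 2 other scalings, 2 other priors, outlier spots kept and each replicate left out. No pair of arrays held identical values. Python 3.11.15 drew the figures.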

Additional observations from a re-analysis of the deposited data

Results flagged for a closer look

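Dixon's test was applied to 98 sets of values, each over the 4 arrays, and 5 of them had an array far from the rest, when about 1 in 20 would by chance. Atp5mk was low in replicate 1, at 3.19. Sdha was low in the same replicate, at 2.76. Sdhb was low in replicate 3, at 3.35, though its SD over the 4 arrays was only 0.07. Ndufa10 was low in replicate 4, at -7.02, where it was not above background. Ndufa4l2 was high in replicate 4, at -7.20, while above background on no array.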

How the results depend on the processing

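The number of members above background on all arrays was 83, 85 with the positive and significant flag, 86 when 1 array sufficed, 79 when every probe had to be, and 83 to 85 with a replicate left out. For excess spread, 0 members passed, 6 with normexp and 0 to 4 with a replicate left out (4 without replicate 4, 0 without each of the others); the cause was not tested. Over all named genes 16 passed, 157 with normexp, 5 with a prior variance held constant over levels, 10 without the robust prior, 25 with outlier spots kept and 7 to 22 with a replicate left out (7 without replicate 2); the cause was not tested. The median level of members, 4.12, was 3.75 with the mean over probes, 3.95 with normexp, 3.94 with outlier spots kept and 0.72 when scaled to probes above background, whose own 75th percentile is higher by construction; it was 4.09 to 4.18 with a replicate left out. The mean deviation of members kept its sign on each replicate in all settings run, but became much smaller on replicates 3 and 4 in some of them. With another replicate left out it was -0.13 to -0.08 on replicate 1 and 0.04 to 0.10 on replicate 2. It was then -0.09 to -0.02 on replicate 3 and 0.05 to 0.11 on replicate 4. Scaled to probes above background it was -0.05, 0.06, -0.03 and 0.02 on replicates 1 to 4, and after quantile normalization -0.06, 0.06, -0.01 and 0.01, against -0.11, 0.08, -0.05 and 0.08; with outlier spots kept it was 0.02 on replicate 4. Of the 52 members that the naming rule gave, levels moved by more than their SD in 52 under scaling to probes above background, 28 with quantile normalization, 28 with outlier spots kept, 22 with normexp and 10 with the mean over probes. No paired analysis was possible because the 4 samples form 1 group.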

Other observations

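Repeat spots of 1 probe were present for 2 members. Atp5mc2, which encodes a c-ring precursor, had a probe spotted 10 times on each array. Its mean over spots was 4.38, 4.40, 4.20 and 4.53 in replicates 1 to 4, with an SD among spots of 0.05 and an SD between arrays of 0.13. Its 4 probes had mean levels from 4.38 to 6.60, and replicate 3 was lowest on each of them. The same held for the 2 probes of Atp5f1e, the small epsilon subunit, where replicate 3 was lowest on both. The probe of Atp5mf had 2 spots, with an SD between spots of 0.30 as a mean over arrays, and these were at 2.17 and 3.11 in replicate 4.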
